A study of Saccharomyces cerevisiae with 6 samples.

Results

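The genes described here are 35 of the 6282 budding yeast genes with a row in the deposited table, chosen by name. Of these, 34 encode enzymes of amino acid synthesis: 7 of lysine, 10 of the branched-chain amino acids, 6 of histidine, 5 of arginine and 6 of the aromatic amino acids. The other 1 is GCN4. All 35 had enough values to be tested, and 30 had a value on every array.

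The messenger RNA of Saccharomyces cerevisiae was measured on 6 2-colour arrays. A hypoxic culture (little oxygen) was set against an aerobic culture of the same strain on each array. On 3 arrays both cultures carried a deletion of HAP1, which encodes a transcription factor that responds to heme, and on 3 both were wild type. Per the series description, replicates were separate cultures grown on different days. The sources used here give neither strain background, auxotrophic markers, growth medium nor length of hypoxia, and do not say whether the deletion strain was 1 clone. All values below are log2 ratios of hypoxic over aerobic RNA, so 1 stands for a doubling in hypoxia. A ratio does not show how abundant a transcript was, and since whole cultures were measured, a change in a share of the cells and a change in every cell cannot be told apart.

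Yeast makes its amino acids through separate pathways whose enzyme genes share an activator, Gcn4. When an amino acid runs short, uncharged transfer RNA activates the kinase Gcn2. Its target, translation factor eIF2, then slows protein synthesis in general but lets ribosomes reach the GCN4 coding sequence. Gcn4 is therefore controlled largely at translation, and its own RNA need not follow its activity. Single pathways also have activators of their own, such as Lys14 for lysine and Leu3 for leucine.

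The members that passed the test in the fit reported were all higher in hypoxia. Fitted only over genes with values on all 6 arrays, HIS6 and ARO4 were called lower in hap1 deletion cells. Means lay within 0.5 of 0 in both strains for 16 of the 35 members, against 3093 of all 6208 genes tested. In hap1 deletion cells LYS1, LEU1, BAT2 and HIS4 rose, none fell and 31 did not pass the test. In wild-type cells LYS1 and BAT2 rose, none fell and 33 did not pass. No member passed for the difference between the strains. The test was limma's moderated test with Benjamini-Hochberg adjustment over all 6208 genes tested, at a threshold of 0.05. The members called higher were 11.4% of the 35 in hap1 deletion cells and 5.71% in wild-type cells. Of all genes, 2.50% were called higher and 1.82% lower in hap1 deletion cells. The wild-type shares were 1.92% higher and 2.32% lower. The difference between the strains was called for 0.354% of all genes. At an unadjusted p under 0.05, 13 of 35 members (37.1%) passed in hap1 deletion cells, against 24.7% of all genes. The same count was 10 members (28.6%) in wild-type cells, against 24.1% of all genes. For the difference it was 2 members, LEU1 and HIS6 (5.71%, against 7.97% of all genes).

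The counts moved with single arrays. In hap1 deletion cells there were 1, 1 and 2 calls without hap1 deletion replicates 1, 2 and 3, and 5, 2 and 2 without wild-type replicates 1, 2 and 3. The wild-type count was 3, 1 and 2 without hap1 deletion replicates 1, 2 and 3, and 0 without any 1 of the wild-type replicates. Of the 35 members, 34, 30 and 31 could be tested without hap1 deletion replicates 1, 2 and 3. Calls over all genes also fell wherever the member count fell and rose wherever it rose. The shifts were therefore not confined to the members. A term for dye orientation left 2 calls in hap1 deletion cells (HIS4 and LEU1) and 1 in wild-type cells (BAT2). It also lowered the calls over all genes in both strains. Hypoxic RNA was in Cy3 on replicate 2 of each strain and in Cy5 on replicates 1 and 3.

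**Figure D1:**
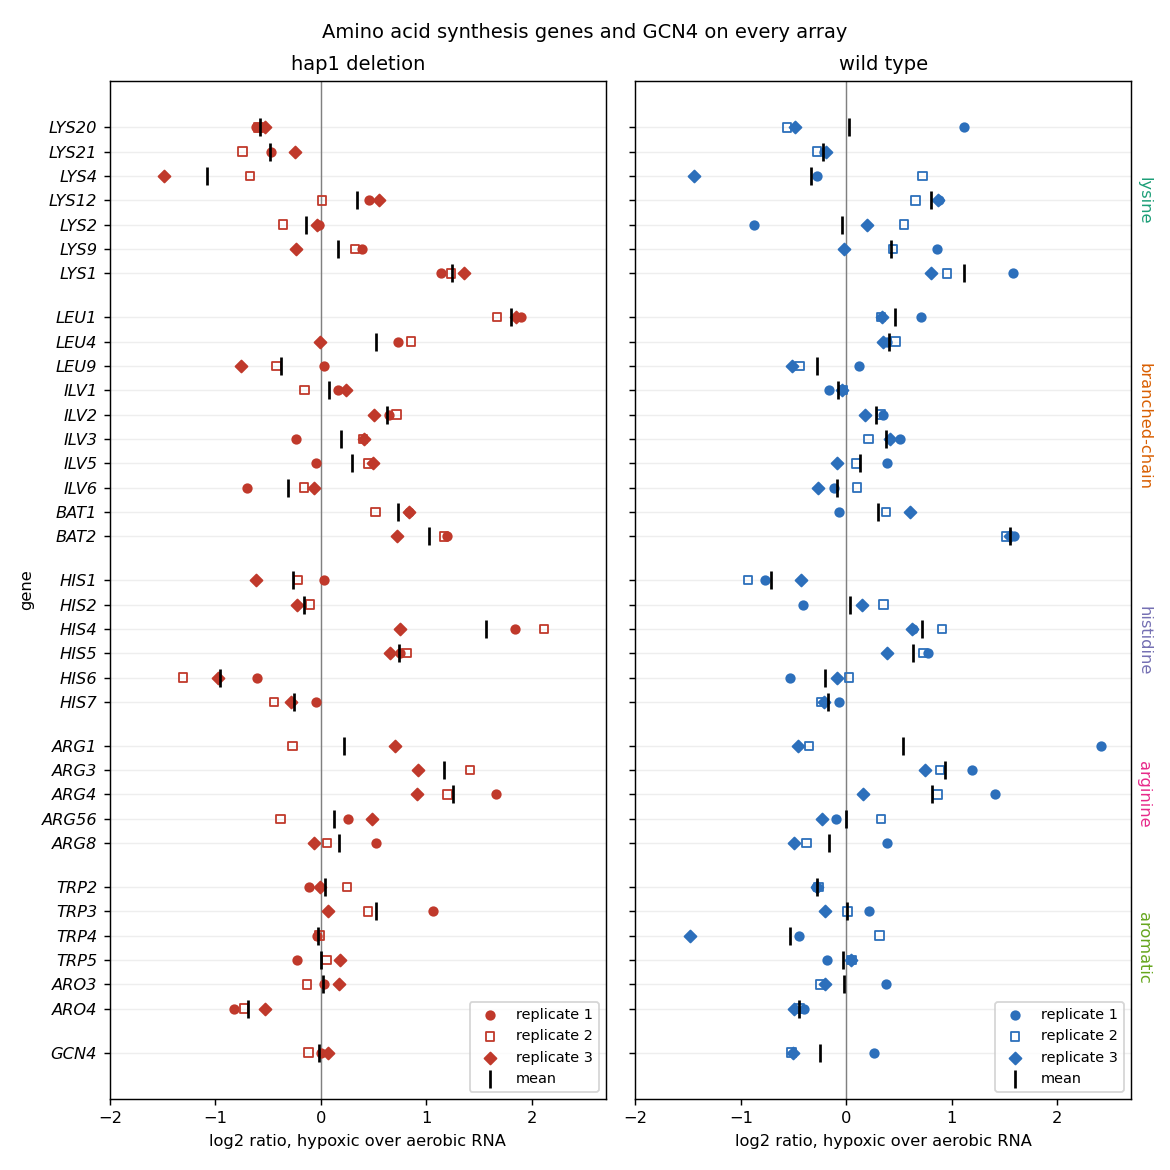
Log2 ratio of hypoxic over aerobic RNA (horizontal axis) of each of the 35 genes (rows, grouped by pathway) on the hap1 deletion arrays (left) and the wild-type arrays (right). Symbols are replicates and black ticks are means, and 5 genes lack 1 hap1 deletion value. LYS1, LEU1, BAT2 and HIS4 are above 0 on all 6 arrays, and 16 of the 35 genes have means within 0.5 of 0 in both strains.

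Across the arrays as a whole, the 5604 to 6267 values per array had medians between -0.07 and -0.02. Hap1 deletion replicate 1 lacked 678 values and 4 of the member values (LYS4, HIS2, ARG1 and ARG3), and hap1 deletion replicate 3 lacked that of TRP4. Correlations across genes ran from 0.329 to 0.575 among hap1 deletion arrays and from 0.412 to 0.539 among wild-type arrays. Between the strains they ran from 0.0971 to 0.538, so the arrays were not cleanly separated by strain, and genes are not independent replicates. The HAP1 spot cannot check the deletion, because both cultures on an array shared it. Of 8 mating-type marker genes 1 passed in hap1 deletion cells (MFA2, a-factor, mean -1.20, limma adjusted p = 0.0460) and 0 in wild-type cells. None of the 8 passed for the difference between the strains. The other a-specific genes, MFA1, STE2 and BAR1, averaged -0.61, -0.68 and -0.90 in hap1 deletion cells. In wild-type cells MFA1, MFA2, STE2 and BAR1 averaged 0.31, 0.39, 0.27 and 0.61. The alpha-specific genes MF(ALPHA)1, MF(ALPHA)2, STE3 and SAG1 averaged -0.29, 0.01, 1.13 and 0.19 in hap1 deletion cells. Their wild-type means were -0.21, -0.66, 0.78 and 1.38. Whether these changes bear on the values below was not tested.

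The branched-chain pathway makes isoleucine, valine and leucine in a partly shared set of reactions. Of the 5 pathways its median varied least over the arrays, with a range of 0.23, against 0.31 for the aromatic genes. It also held the most genes, and a median over more genes can vary less for that reason alone. The branched-chain median over 10 genes was 0.40, 0.49 and 0.45 on the hap1 deletion arrays and 0.37, 0.27 and 0.26 on the wild-type arrays. All 6 lay above the median of all genes on the same array, which was between -0.07 and -0.02. LEU1 and BAT2 were its calls in hap1 deletion cells, and BAT2 was its call in wild-type cells.

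LEU1 (YGL009C) encodes isopropylmalate isomerase, an iron-sulfur enzyme and the second step of leucine synthesis. It read 1.89, 1.67 and 1.85 on the hap1 deletion arrays, against 0.70, 0.33 and 0.34 on the wild-type arrays. The strains did not overlap: each hap1 deletion array was above each wild-type array. The rise in hap1 deletion cells was 1.80 ± 0.12 (SD, n = 3), a 3.49-fold rise (limma adjusted p = 0.00386), and it stayed below the threshold in all 14 alternative settings run for it (adjusted p from 0.00232 to 0.0352). In wild-type cells the mean was 0.46 ± 0.21 (SD, n = 3) and did not pass (limma adjusted p = 0.164). LEU1 had the widest gap between the strains of any member, 1.35 with a moderated SE of 0.24. The unadjusted 95% interval of the gap, 0.78 to 1.91, lay above 0. Adjusted over all genes the gap did not pass (limma adjusted p = 0.136), nor did it in any of 14 alternatives (adjusted p from 0.105 to 0.407).

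BAT2 (YJR148W) and BAT1 (YHR208W) encode the cytosolic and mitochondrial branched-chain aminotransferases, which carry out the last synthetic step and the first step of breakdown. BAT2 read 1.19, 1.17 and 0.72 on the hap1 deletion arrays and 1.59, 1.52 and 1.55 on the wild-type arrays. It was above 0 everywhere, and each wild-type value was higher than each hap1 deletion value. BAT2 rose by 1.03 ± 0.27 (SD, n = 3) in hap1 deletion cells (limma adjusted p = 0.0275) and by 1.55 ± 0.04 (SD, n = 3), or 2.93-fold, in wild-type cells (limma adjusted p = 0.0117). The call in hap1 deletion cells was kept only without wild-type replicate 1 and lost without any other 1 array, and the wild-type call was lost without any 1 wild-type array (largest adjusted p 0.155 in hap1 deletion cells and 0.104 in wild-type cells). The difference of -0.53 had an interval from -1.11 to 0.05 (limma adjusted p = 0.668).

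BAT1 read 0.84, 0.52 and 0.83 in hap1 deletion cells and -0.07, 0.38 and 0.61 in wild-type cells, and passed in neither (limma adjusted p = 0.0788 in hap1 deletion cells and 0.382 in wild-type cells). The cytosolic isozyme exceeded the mitochondrial one on all 3 wild-type arrays, by 1.66, 1.14 and 0.94. On the hap1 deletion arrays BAT2 minus BAT1 was 0.35, 0.65 and -0.11, so there the order held on 2 of 3 arrays. These gaps compare ratios of 2 genes and not their levels.

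**Figure D2:**
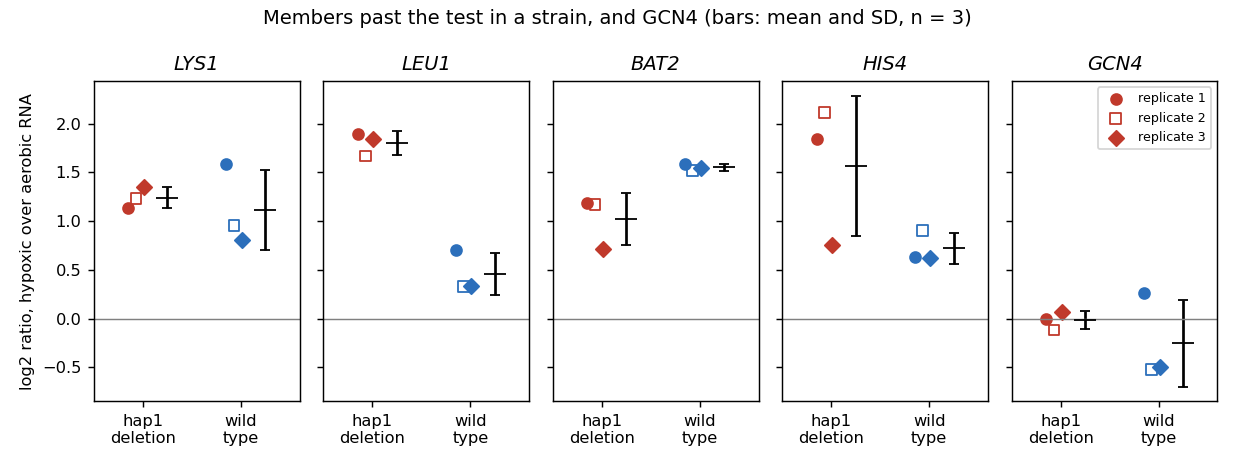
Log2 ratio of hypoxic over aerobic RNA on each array (symbols) with the mean and SD (bars, n = 3) for LYS1, LEU1, BAT2, HIS4 and GCN4, hap1 deletion left and wild type right in each panel. LEU1 lies at 1.67 or above in hap1 deletion cells and at 0.70 or below in wild-type cells, while GCN4 lies between -0.52 and 0.26 over all 6 arrays.

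Leucine synthesis begins with the isopropylmalate synthases LEU4 and LEU9, whose spots may share signal because the enzymes are close paralogues. LEU4, the main form, read 0.73, 0.86 and -0.01 in hap1 deletion cells and 0.39, 0.47 and 0.35 in wild-type cells. LEU9, the minor form, read 0.03, -0.42 and -0.75 in hap1 deletion cells and 0.12, -0.44 and -0.52 in wild-type cells. LEU9 lay below LEU4 on all 6 arrays, by 0.91 ± 0.32 in hap1 deletion cells and 0.68 ± 0.36 in wild-type cells (SD, n = 3 each), and neither gene passed in either strain.

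None of the 5 genes for the remaining steps to valine and isoleucine passed in either strain. ILV2, the catalytic subunit of acetolactate synthase, read 0.65, 0.72 and 0.50 in hap1 deletion cells and 0.35, 0.33 and 0.18 in wild-type cells. The strains did not overlap for ILV2, but it passed neither in hap1 deletion cells (limma adjusted p = 0.0737) nor for the difference of 0.34 (adjusted p = 0.727). ILV6, its regulatory subunit, averaged -0.31 ± 0.34 in hap1 deletion cells and -0.09 ± 0.18 in wild-type cells (SD, n = 3 each). ILV5, the reductoisomerase, averaged 0.30 ± 0.30 in hap1 deletion cells and 0.13 ± 0.24 in wild-type cells. ILV3, the iron-sulfur dihydroxyacid dehydratase, averaged 0.19 ± 0.37 in hap1 deletion cells and 0.38 ± 0.15 in wild-type cells. ILV1, threonine deaminase and the entry to isoleucine, lay closest to 0 of these 5 genes in both strains, with 0.08 ± 0.21 in hap1 deletion cells and -0.08 ± 0.07 in wild-type cells.

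LEU1, LEU2, LEU4, ILV2, ILV5, BAT1 and GDH1 are textbook targets of the leucine-pathway activator Leu3. These 7 genes were gathered after their values were seen, and 2 of them, LEU2 and GDH1, are not among the 35. GDH1, the main NADP-dependent glutamate dehydrogenase, read 1.64, 1.09 and 1.32 in hap1 deletion cells and -0.31, 0.76 and 0.15 in wild-type cells. It rose in hap1 deletion cells (mean 1.35 ± 0.28, SD, n = 3, limma adjusted p = 0.0304), a call kept without wild-type replicate 1 or 2 and lost without any other 1 array. Its difference of 1.15 did not pass (limma adjusted p = 0.427). LEU2, isopropylmalate dehydrogenase, averaged -0.07 in hap1 deletion cells and -0.15 in wild-type cells. LEU3 itself read -0.77, 0.25 and -0.40 in hap1 deletion cells and 0.25, -0.77 and -1.02 in wild-type cells and passed in neither.

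The lysine pathway builds its product from 2-oxoglutarate through the aminoadipate route of fungi, and only its last step was called in the fit reported. LYS1 (YIR034C), saccharopine dehydrogenase of the last step, read 1.14, 1.23 and 1.35 in hap1 deletion cells and 1.58, 0.96 and 0.80 in wild-type cells. It was above 0 on all 6 arrays and the strains overlapped. LYS1 rose by 1.24 ± 0.11 (SD, n = 3), or 2.37-fold, in hap1 deletion cells (limma adjusted p = 0.0249) and by 1.11 ± 0.41 (SD, n = 3), or 2.16-fold, in wild-type cells (limma adjusted p = 0.0384). The hap1 deletion call was lost without any 1 hap1 deletion array, and the wild-type call without any 1 wild-type array or without hap1 deletion replicate 2 (largest adjusted p 0.145 in hap1 deletion cells and 0.155 in wild-type cells). The strains differed by 0.13, with an interval from -0.55 to 0.80.

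The first step of lysine synthesis, homocitrate synthase, has isozymes LYS20 and LYS21, which are close paralogues whose spots may share signal. LYS20 read -0.62, -0.59 and -0.53 in hap1 deletion cells and 1.12, -0.56 and -0.49 in wild-type cells. The value of 1.12 on wild-type replicate 1 stands apart from the other five LYS20 values, which lie within 0.13 of each other. LYS21 read -0.47, -0.74 and -0.24 in hap1 deletion cells and -0.21, -0.28 and -0.19 in wild-type cells, below 0 on every array, wild-type replicate 1 included. Neither isozyme passed in either strain.

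Between these ends, LYS12, homoisocitrate dehydrogenase, read 0.46, 0.01 and 0.55 in hap1 deletion cells and 0.88, 0.65 and 0.87 in wild-type cells. The strains did not overlap, with wild type higher, and the wild-type mean of 0.80 ± 0.13 (SD, n = 3) did not pass (limma adjusted p = 0.0566). This mean passed in 3 of 14 alternative settings. LYS4, the iron-sulfur enzyme homoaconitase, read -0.67 and -1.49 on hap1 deletion replicates 2 and 3 and -0.27, 0.72 and -1.44 in wild-type cells, a wild-type range of 2.16. LYS2, the aminoadipate reductase, averaged -0.14 ± 0.19 in hap1 deletion cells and -0.05 ± 0.74 in wild-type cells (SD, n = 3 each). LYS9, saccharopine reductase, averaged 0.16 ± 0.34 in hap1 deletion cells and 0.43 ± 0.44 in wild-type cells (SD, n = 3 each). LYS4, LYS2 and LYS9 passed in neither strain. The lysine median was -0.14 over the hap1 deletion means, against -0.06 for all genes, and 0.02 over the wild-type means, against -0.04 for all genes. The wild-type median is the mean of LYS20, which is -0.52 without wild-type replicate 1. The median was 0.21, 0.32 and 0.28 without wild-type replicates 1, 2 and 3, and ran from -0.20 to -0.03 without 1 hap1 deletion array.

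The histidine genes held the widest range of means within a pathway in hap1 deletion cells, 2.53 from HIS6 to HIS4. HIS4 (YCL030C), a multifunctional enzyme that includes the last step, read 1.84, 2.11 and 0.75 in hap1 deletion cells and 0.63, 0.91 and 0.62 in wild-type cells. It lay above 0 everywhere, and hap1 deletion replicate 3 fell among the wild-type values. HIS4 rose in hap1 deletion cells by 1.57 ± 0.72 (SD, n = 3), or 2.97-fold (limma adjusted p = 0.0294), a call kept without hap1 deletion replicate 3 or wild-type replicate 1 and lost without any other 1 array (largest adjusted p 0.155). The wild-type mean of 0.72 ± 0.16 (SD, n = 3) did not pass (limma adjusted p = 0.172), nor did the difference of 0.85 (adjusted p = 0.668).

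HIS6 (YIL020C), an isomerase midway in the pathway and named after its values were seen, read -0.60, -1.31 and -0.97 in hap1 deletion cells and -0.53, 0.02 and -0.09 in wild-type cells. All hap1 deletion values were below all wild-type values, and neither the hap1 deletion mean of -0.96 ± 0.35 (limma adjusted p = 0.0527) nor the difference of -0.76 (limma adjusted p = 0.594) passed. HIS5, the aminotransferase, read 0.75, 0.81 and 0.66 in hap1 deletion cells and 0.78, 0.73 and 0.39 in wild-type cells. Its values overlapped closely between the strains, above 0 on all 6 arrays without passing in either (limma adjusted p = 0.0592 in hap1 deletion cells and 0.0811 in wild-type cells). HIS1, the committing phosphoribosyltransferase, read 0.03, -0.22 and -0.62 in hap1 deletion cells and -0.77, -0.93 and -0.43 in wild-type cells, lower than 0 on all 3 wild-type arrays. It passed in neither strain. HIS7, the glutamine amidotransferase, averaged -0.26 ± 0.20 in hap1 deletion cells and -0.17 ± 0.09 in wild-type cells (SD, n = 3 each). HIS2, the phosphatase, averaged -0.16 ± 0.09 in hap1 deletion cells (SD, n = 2) and 0.03 ± 0.39 in wild-type cells (SD, n = 3), and neither HIS7 nor HIS2 passed. The histidine median was -0.21 over the hap1 deletion means (-0.10 without hap1 deletion replicate 3) and -0.07 over the wild-type means (0.11, -0.13 and -0.09 without wild-type replicates 1, 2 and 3).

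**Figure D3:**
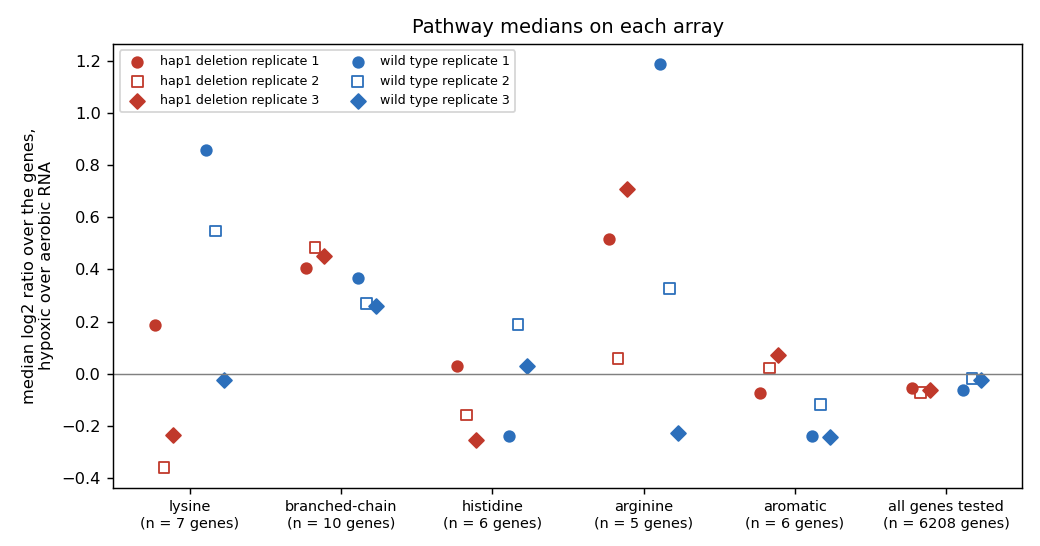
Median log2 ratio of hypoxic over aerobic RNA (vertical axis) over the genes of each pathway and over all genes tested, on each array, hap1 deletion left and wild type right in each group. Hap1 deletion replicate 1 lacks 4 member values. The branched-chain medians lie between 0.26 and 0.49 on all 6 arrays, while the arginine medians spread from -0.23 to 1.19.

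The arginine pathway, in which ornithine made in the mitochondrion is turned into arginine in the cytosol, held no call in the fit reported. ARG4 (YHR018C), argininosuccinate lyase of the last step, read 1.66, 1.20 and 0.91 in hap1 deletion cells and 1.41, 0.86 and 0.16 in wild-type cells. ARG3 (YJL088W), ornithine carbamoyltransferase, read 1.41 and 0.92 on hap1 deletion replicates 2 and 3 and 1.19, 0.89 and 0.74 in wild-type cells. Both were above 0 on every array with a value and overlapped between strains. ARG4 averaged 1.25 ± 0.38 in hap1 deletion cells (n = 3, limma adjusted p = 0.0532) and 0.81 ± 0.63 in wild-type cells (n = 3, limma adjusted p = 0.134). ARG3 averaged 1.17 ± 0.35 in hap1 deletion cells (n = 2, limma adjusted p = 0.0592) and 0.94 ± 0.23 in wild-type cells (n = 3, limma adjusted p = 0.0576). Of the alternative settings, 2 of 14 called ARG4 in hap1 deletion cells and 3 of 11 called ARG3 in wild-type cells.

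ARG1, argininosuccinate synthase, read -0.27 and 0.71 on hap1 deletion replicates 2 and 3 and 2.41, -0.35 and -0.46 in wild-type cells. Wild-type replicate 1 exceeded the next wild-type value of ARG1 by 2.76. The arginine median was 0.52, 0.06 and 0.71 on the hap1 deletion arrays and 1.19, 0.33 and -0.23 on the wild-type arrays. ARG1 was named after its values were seen. The mitochondrial enzymes of ornithine synthesis did not pass in either strain, with ARG56, the kinase and reductase, at 0.12 ± 0.45 in hap1 deletion cells and 0.00 ± 0.29 in wild-type cells, and ARG8, the aminotransferase, at 0.17 ± 0.31 in hap1 deletion cells and -0.16 ± 0.47 in wild-type cells (SD, n = 3 each).

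The aromatic genes, which make tryptophan, phenylalanine and tyrosine from a common trunk, held no call in the fit reported. TRP5, tryptophan synthase, averaged 0.00 ± 0.21 in hap1 deletion cells and -0.03 ± 0.13 in wild-type cells (SD, n = 3 each). TRP2, a subunit of anthranilate synthase, read -0.11, 0.25 and -0.01 in hap1 deletion cells and -0.29, -0.26 and -0.28 in wild-type cells, so the strains did not overlap although both lay close to 0. TRP3, which holds the partner subunit, read 1.07, 0.44 and 0.07 in hap1 deletion cells and 0.22, 0.01 and -0.20 in wild-type cells. TRP4, the phosphoribosyltransferase, read -0.03 and -0.01 on hap1 deletion replicates 1 and 2 and -0.44, 0.32 and -1.48 in wild-type cells. No tryptophan gene passed in either strain.

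ARO3 and ARO4 encode the feedback-controlled DAHP synthases that open aromatic synthesis, and as paralogues their spots may share signal. ARO4 read -0.82, -0.73 and -0.53 in hap1 deletion cells and -0.40, -0.44 and -0.50 in wild-type cells. Of the 6 aromatic members only ARO4 was below 0 on all 6 arrays, and the hap1 deletion values were all lower than the wild-type values. It averaged -0.69 ± 0.15 in hap1 deletion cells (limma adjusted p = 0.0619) and -0.45 ± 0.05 in wild-type cells (limma adjusted p = 0.152), passing in neither (SD, n = 3 each). ARO3 had means of 0.02 ± 0.15 in hap1 deletion cells and -0.03 ± 0.35 in wild-type cells. The aromatic median was 0.01 over the hap1 deletion means (-0.04 to 0.07 without 1 hap1 deletion array) and -0.15 over the wild-type means (-0.25 without wild-type replicate 1 and -0.07 without wild-type replicate 3).

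GCN4 (YEL009C) read 0.00, -0.12 and 0.07 in hap1 deletion cells and 0.26, -0.52 and -0.50 in wild-type cells. The hap1 deletion values lay within 0.19 of each other, and wild-type replicate 1 was the highest of the 6. The mean was -0.02 ± 0.09 in hap1 deletion cells (SD, n = 3, limma adjusted p = 0.969) and -0.25 ± 0.45 in wild-type cells (SD, n = 3, limma adjusted p = 0.495). The 95% interval of the mean ran from -0.51 to 0.47 in hap1 deletion cells and from -0.74 to 0.24 in wild-type cells. A doubling or halving of GCN4 RNA lies outside both, before any adjustment for the number of genes. Both intervals use 1 spread shared by the strains, although the SD was 0.09 in hap1 deletion and 0.45 in wild-type cells. No interval from the wild-type arrays alone is given, so these arrays by themselves are not said to exclude a halving. Because Gcn4 is controlled at translation, its RNA ratio does not measure its activity.

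Of 13 genes of general control, which set Gcn4 activity, counting the Gcn2 kinase complex, eIF2, eIF2B and Gcn4 turnover, 1 fell in hap1 deletion cells and 12 did not pass. In wild-type cells 1 rose, 1 fell and 11 did not pass. Of all genes, 1.82% fell in hap1 deletion cells, and 1.92% rose and 2.32% fell in wild-type cells. At an unadjusted p under 0.05, 6 of the 13 passed in hap1 deletion cells, against 24.7% of all genes, and 5 in wild-type cells, against 24.1%. Means lay above 0 for 2 of the 13 in hap1 deletion cells, against 45.1% of all genes, and for 3 in wild-type cells, against 47.0%. GCD11, the gamma subunit of eIF2, fell in hap1 deletion cells, with values of -0.73, -0.995 and -1.47 there (limma adjusted p = 0.0312), against -0.42, -0.58 and -0.42 in wild-type cells (limma adjusted p = 0.194). GCD2, a regulatory subunit of eIF2B, fell in wild-type cells, reading -0.55, -0.56 and -0.97 in hap1 deletion cells (limma adjusted p = 0.0722) and -0.83, -0.99 and -0.73 in wild-type cells (limma adjusted p = 0.0485). SSN8, a cyclin of the Mediator kinase that marks Gcn4 for destruction, read -0.54, -0.38 and -0.08 in hap1 deletion cells and 1.48 and 1.19 on wild-type replicates 1 and 3. It rose in wild-type cells with 1 value missing (limma adjusted p = 0.0416). The GCD11 call was kept only without wild-type replicate 1, and those of GCD2 and SSN8 only without hap1 deletion replicate 1 or 3, and all 3 were lost or untestable without any other 1 array. GCN2 averaged -0.15 ± 0.25 in hap1 deletion cells and -0.25 ± 0.18 in wild-type cells and passed in neither (SD, n = 3 each). The median of the 13 was -0.43 in hap1 deletion cells, against -0.06 for all genes, and -0.25 in wild-type cells, against -0.04 for all genes.

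Other genes of amino acid metabolism gave few calls. Of all genes, 2.50% were called higher and 1.82% lower in hap1 deletion cells, and 1.92% higher and 2.32% lower in wild-type cells. At an unadjusted p under 0.05, 24.7% of all genes passed in hap1 deletion cells and 24.1% in wild-type cells. None of the 14 tested genes for remaining steps of the same pathways passed limma's adjusted threshold in either strain (0 in hap1 deletion cells and 4 in wild-type cells at an unadjusted p under 0.05), and a further 1, HIS3, had no value on any array. None of 11 tested pathway regulators passed limma's test (1 in hap1 deletion cells and 0 in wild-type cells at an unadjusted p under 0.05). LYS14 was among them, averaging -0.01 in hap1 deletion cells and -0.26 in wild-type cells. Of 13 amino acid permeases none passed limma's test (2 in hap1 deletion cells and 3 in wild-type cells at an unadjusted p under 0.05). Among 22 genes of other amino acid families GDH1 rose in hap1 deletion cells, and GLY1, threonine aldolase, fell in wild-type cells. At an unadjusted p under 0.05, 9 of these 22 passed in hap1 deletion cells and 5 in wild-type cells. GLY1 read -0.66, -0.42 and -0.36 in hap1 deletion cells (limma adjusted p = 0.155) and -1.06, -0.61 and -0.96 in wild-type cells (limma adjusted p = 0.0453). Its call was kept only without hap1 deletion replicate 1 or 3 and lost without any other 1 array.

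**Figure D4:**
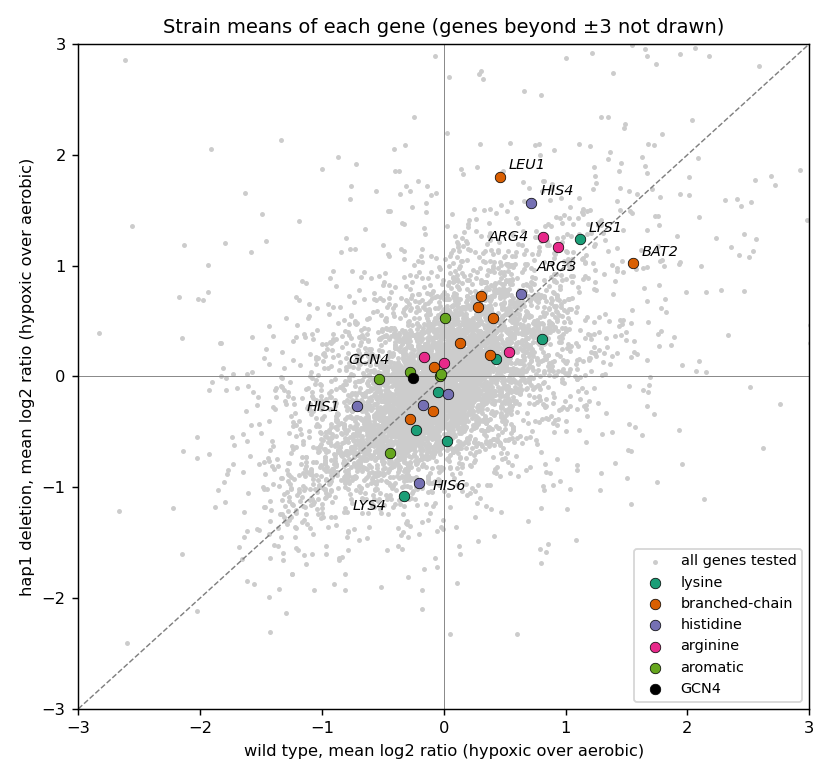
Mean log2 ratio of hypoxic over aerobic RNA in hap1 deletion cells (vertical axis) against wild-type cells (horizontal axis) for the 35 genes, coloured by pathway, and for all genes tested (grey). The dashed line marks equal means. LEU1 lies at 1.80 in hap1 deletion cells against 0.46 in wild-type cells, and BAT2 at 1.03 in hap1 deletion cells against 1.55 in wild-type cells. Genes beyond 3 in either direction are not drawn.

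Set side by side, the pathways did not move as blocks. Genes above 0 on all 3 arrays of a strain numbered 10 of the 30 with 3 values in hap1 deletion cells (33.3%, against 20.1% of all genes) and 11 of 35 in wild-type cells (31.4%, against 24.0% of all genes). Those below 0 on all 3 arrays numbered 7 (23.3%, against 28.6%) in hap1 deletion cells and 6 (17.1%, against 28.3%) in wild-type cells. Each pathway held means of both signs in each strain, except arginine in hap1 deletion cells, where all 5 were above 0. The median SD between arrays was 0.27 for the members, against 0.38 for all genes, in hap1 deletion cells, and 0.24, against 0.34 for all genes, in wild-type cells.

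Between the strains, values did not overlap for 3 members with hap1 deletion higher (LEU1, ILV2 and TRP2), where 7.35% of all genes did so, and for 4 with hap1 deletion lower (LYS12, BAT2, HIS6 and ARO4), where 8.94% did. The unadjusted 95% interval of the difference lay wholly between -1 and 1 for 18 of 35 members (51.4%, against 36.8% of all genes), GCN4 and LYS1 among them. For the other 17 members the interval reached a difference of 2-fold or more.

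The wild-type arrays differed among themselves. Replicate 1 gave the highest of the 3 values for 20 of 35 members (57.1%, against 37.3% of all genes), replicate 2 for 12 and replicate 3 for 3 (8.57%, against 31.7%). LYS20, LEU9, ARG1, ARG8, ARO3 and GCN4 had replicate 1 above 0 and replicates 2 and 3 below. LYS2, BAT1, HIS2 and TRP5 went the other way, with replicate 1 below 0 and replicates 2 and 3 above. In hap1 deletion cells replicates 1, 2 and 3 gave the highest value for 12, 5 and 13 of 30 members. What set wild-type replicate 1 apart was not tested.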

How the data were processed

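Per the labels, cDNA was primed on poly(A) RNA, and GenePix 5.0 measured the spots; the sources used here do not give background correction, filters or normalization. The values deposited by the authors are log10 ratios of aerobic over hypoxic RNA, per the titles. The base was read from the values, of which 242 of 36476 were exact fractions with denominators up to 30 (relative tolerance 7e-08) under base 10, 6 under base 2 and 5 under base e. Arrays with swapped dyes correlated positively with the others, so all ratios were taken to run the same way, and were changed to log2 of hypoxic over aerobic.

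Genes with at least 2 values per strain (6208, leaving out 74) were fitted with limma 3.58.1 in R 4.3.3, using 1 mean per strain, 4 residual and 2.97 prior degrees of freedom, two-sided. The script was tested on simulated data. RefSeq's R64 table named all 35 members; the array's build is unknown here, so coordinates are left out. The number of arrays, 3 per strain, limits the precision.

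Array values are printed for members that passed, the most extreme of each pathway, GCN4 and isozymes; 1 gene outside the members is not reported here. Members and lists were chosen with earlier results of these data known. Alternatives were centring, scaling, quantile normalization, a dye term, other filters on missing values, a robust prior, the spread of 1 strain alone, a replicate block and leaving out each array.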

Additional observations from a re-analysis of the deposited data

How the results depend on the processing

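The 4 calls among the members in hap1 deletion cells became 2 with a dye term, 8 over genes with values on all 6 arrays (6 higher and 2 lower, 30 members tested) and 1 with the spread of that strain alone. Leaving out 1 array gave 1 to 5. The 2 wild-type calls became 4 with arrays centred and scaled and 4 with quantile normalization, 1 with a dye term and 0 with the spread of that strain alone (limma; 10 members had an unadjusted p under 0.05 in the fit reported). Leaving out 1 array gave 0 to 3. In each of these settings where a member count fell or rose, the calls over all genes moved in the same direction. With arrays centred on their medians, the hap1 deletion member count rose to 5 while calls over all genes fell. No member was called for the difference between the strains under any alternative, with 2 at an unadjusted p under 0.05 in the fit reported. With the replicate number as a block this count was also 0, among 0 calls over all genes. The numbers were not taken as pairs: deviations from the strain means of same-numbered arrays correlated at -0.02, 0.06 and 0.13, and not every array correlated best with its own number. Over 1425 values of single members under the alternatives, 27 lost and 12 gained a call, 54 changed sign while uncalled, and no called value changed sign. Calls were gained by HIS5, HIS6, ARG4 and ARO4 in hap1 deletion cells and by LYS12 and ARG3 in wild-type cells. Of 84 pathway medians under the alternatives, 6 moved by more than the spread between arrays: the branched-chain median in hap1 deletion cells (0.41) became 0.48 with arrays centred, 0.47 with arrays centred and scaled and 0.29 without hap1 deletion replicate 2, the arginine median there (0.22) became 0.71 without hap1 deletion replicate 2, and the aromatic median in wild-type cells (-0.15) became -0.25 without wild-type replicate 1 and -0.07 without wild-type replicate 3. The causes were not tested.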
